A study of Mus musculus with 14 samples.

Results

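The genes described here encode the machinery that brings secreted proteins into the endoplasmic reticulum (ER), modifies them there and moves them to the Golgi. They were chosen by symbol, as the rows whose name begins with that of a signal recognition particle, translocon, signal peptidase, oligosaccharyltransferase, protein disulfide isomerase, collagen hydroxylase, coat protein, cargo receptor, KDEL receptor or derlin gene. The rule found 79 of the 9558 rows of the table, which hold 78 of its 9549 gene IDs, because Srp54b has a pair of rows. Among the 78 genes are Sec14l1 and Sec14l4, lipid-transfer protein genes that share the letters of the name and not the pathway. The rule reads the symbol alone and uses no expression value, but the set was chosen with earlier results of these data known.

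The values come from RNA sequencing of 14 single Tomato-positive cells, taken from bones of Prrx1-CreERT;Tomato adult mice on the C57BL/6 strain, numbered 1 to 14 as in the labels. In this line the Prrx1 promoter drives a tamoxifen-dependent Cre recombinase, so a red cell is one in which the promoter was active when tamoxifen was given, or its descendant. Each mouse had 2 mg of tamoxifen per 30 g of body weight, injected daily for 3 days, and cells were sorted from collagenase-digested tibiae, radii and ulnae whose marrow had been flushed out. All cells form 1 group, no animal is named, and the cells count as 1 sample, which leaves nothing to test between samples, and p-values are not given. Levels are log2 quantile-normalized FPKM (fragments per kilobase of transcript and library size), in which 1 or more is called detected. Such a level ranks a gene within its cell, and the library depth is unknown.

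A protein destined for secretion carries a signal peptide, which the signal recognition particle recognises on the ribosome. The ribosome is brought to the Sec61 channel, signal peptidase removes the signal peptide as the chain enters the ER, and oligosaccharyltransferase attaches sugars. Fibrillar collagen chains are then hydroxylated on proline by prolyl 4-hydroxylase and on lysine by lysyl hydroxylases, and prolyl hydroxylation is needed for a stable triple helix at body temperature. COPII coats form the carriers that leave the ER, and COPI coats return escaped ER proteins from the Golgi. Osteoblasts and fibroblasts depend on this route for the type I collagen of bone and connective tissue. The question asked was how the levels of these genes relate to those of Col1a1 and Col1a2, which encode the chains of type I collagen.

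The 2 collagen genes were detected in all 14 cells. Col1a1 had a lowest level of 3.68 in cell 8, a median of 7.45 and a highest level of 12.96 in cell 13. Col1a2 ranged from 5.60 in cell 2 to 14.58 in cell 13, with a median of 8.78. Their mean in each cell, called the collagen mean below, was highest in cell 13 at 13.77, followed by 11.77 in cell 6, 11.76 in cell 10 and 10.73 in cell 1, and was lowest in cell 8 at 4.69. The 2 genes followed each other closely over the cells, with a Spearman rho of 0.92. The other fibrillar collagen genes differed in this: Col5a1 and Col5a2 had a rho of 0.82 and 0.74 with the collagen mean, and Col3a1 had 0.13.

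Secretory genes were widely detected at well above the middle of the table. Of the 78 genes, 34 were detected in all 14 cells, which is 43.6% of them against 15.8% of all genes, and 69 were detected in at least 7 cells, which is 88.5% against 51.7%. The median over the genes of their median level was 3.98, against 0.96 over all genes, and the median gene stood at the 82.4th percentile of all genes by mean level. The remaining 9 genes, detected in fewer than 7 cells, were Pdia5, Sec16a, Sec22a, Sec22c, Sec23a, Sec24b, Sec24c, Srp68 and Copg2. Copg2, a paralogue of the COPI gamma subunit gene Copg1, was detected in cell 12 alone, at 6.68. The plot of all members shows how unevenly the genes of each role were detected.

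**Figure D1:**
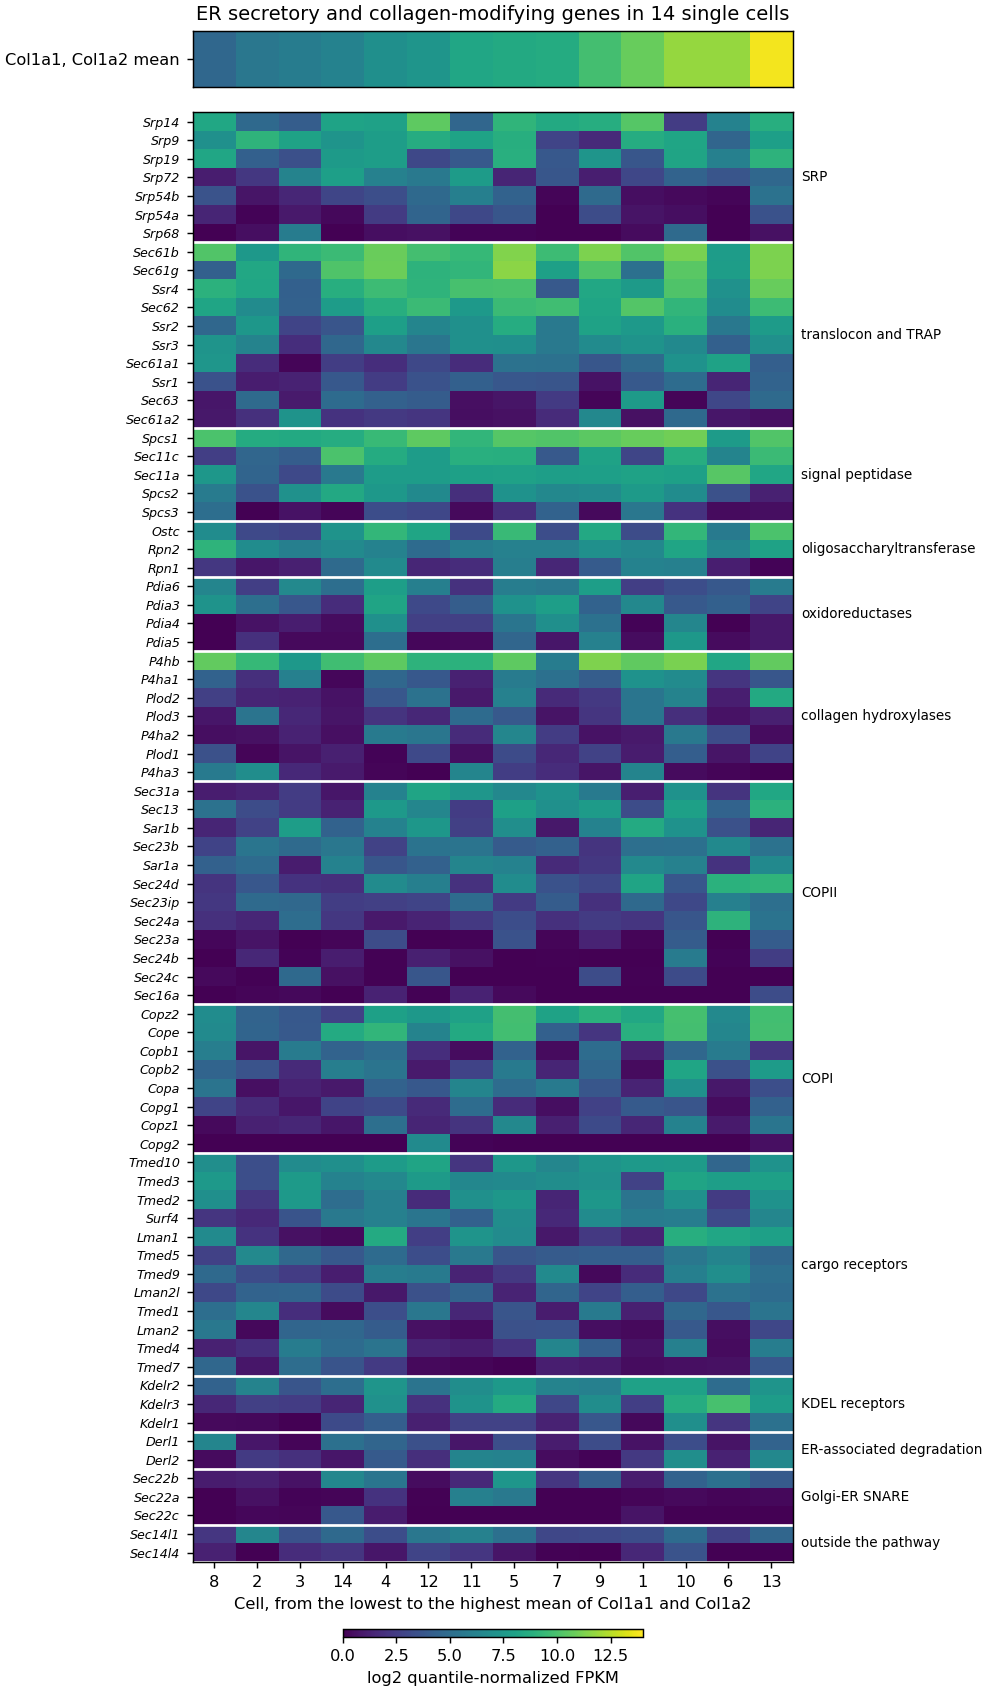
Levels (log2 quantile-normalized FPKM, colour scale from 0 to 14) of the 78 genes, grouped by role, in the 14 cells, which run from the lowest collagen mean at the left (cell 8, 4.69) to the highest at the right (cell 13, 13.77); the strip on top is the collagen mean. Spcs1, Sec61b and P4hb are high in nearly every column, whereas Copg2, Sec16a and Sec22c are near 0 in most, and P4hb is drawn with the collagen hydroxylases.

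Several genes of ER entry were among the highest of the set, and others were low. On the per-length FPKM scale, the 5 highest medians of the whole set belonged to the signal peptidase subunit gene Spcs1 (10.14), P4hb (10.12), the Sec61 channel subunit genes Sec61b and Sec61g, and Ssr4 (8.89), which encodes a subunit of the translocon-associated protein complex. The median of Sec61g was 9.13, and that of Sec61b lay between it and that of P4hb. Spcs1 was also among the steadiest, with levels between 7.71 and 10.99 and an SD of 0.996 over the 14 cells. Sec61b ranged from 7.48 in cell 2 to 11.35 in cell 5. By contrast Sec61g had levels of 4.29, 4.81 and 5.15 in cells 8, 3 and 1 and of 7.80 to 11.55 elsewhere, so that the genes for these small channel subunits did not keep 1 ratio. The channel-forming subunit had lower levels, with a median of 3.99 for Sec61a1, which was detected in 13 cells, and 1.84 for its paralogue Sec61a2, detected in 8. Division by length understates long genes in a 3' library, and its part in this contrast was not tested. Among the 7 signal recognition particle genes, Srp14 had the highest median at 8.24, and the largest subunit genes Srp72 and Srp68 had 4.10 and 0.30. Srp54a and Srp54b are near-identical copies whose reads the counting could have split, and their values are uncertain for that reason.

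Of these entry genes, Sec11a had the closest relation to collagen. It encodes a catalytic subunit of signal peptidase (ENSMUSG00000025724, GRCm38 chromosome 7, 80904889 to 80947780, minus strand). The gene was lowest in cell 3 at 3.07, had a median of 7.85 and was highest in cell 6 at 10.36. Cells 3, 2 and 14, at 3.07, 4.49 and 5.68, stood below the rest, and 10 cells lay within 0.5 of the median, between 7.41 and 8.26. The Spearman rho of Sec11a with the collagen mean was 0.91, the highest of the 9547 genes other than Col1a1 and Col1a2. It was 0.88 to 0.93 with each cell left out in turn and 0.82 in the larger of the cell sets described below. Pearson's r was 0.65, and over the 10 cells near the median rho was 0.84, so the high rank correlation rests in part on an order within a narrow range of levels. The other catalytic subunit gene, Sec11c, had a median of 7.91 and a rho of 0.26. Exons of Sec11a overlap those of Nmb on the same strand in the annotation, and Nmb had a median of 2.34 and a rho of -0.040 with the collagen mean.

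**Figure D2:**
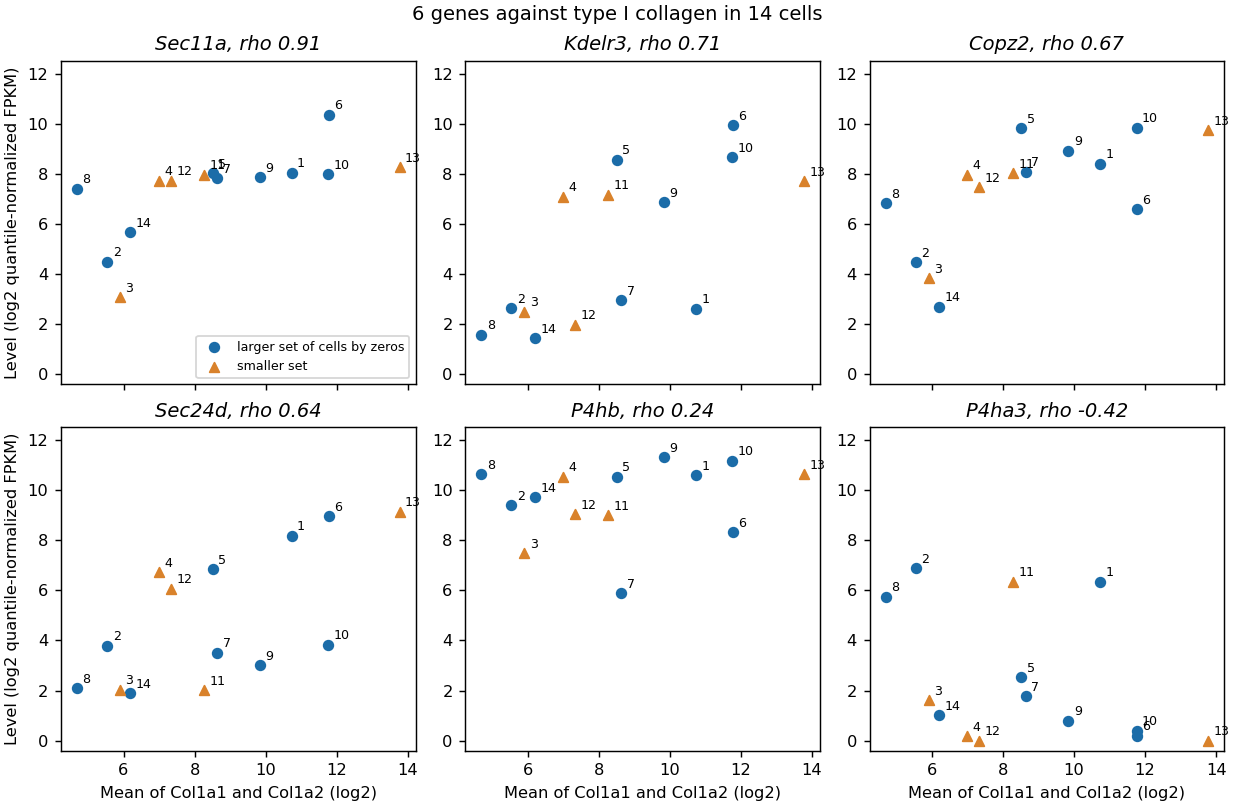
Levels of 6 genes (vertical axes, log2 quantile-normalized FPKM) against the collagen mean (horizontal axes, log2) in the 14 cells, each point labelled with its cell number and marked by the set of cells it belongs to by its pattern of values at 0. Sec11a is flat at 7.41 to 8.26 in 10 cells, Kdelr3 splits into 7 cells at 6.88 or more and 7 at 2.96 or less, and P4ha3 is highest in cells 2, 11, 1 and 8.

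The sequence before the start of a gene can carry the ER stress element, to which factors of the unfolded protein response bind in many chaperone genes. The element, which is CCAAT, then 9 bases of any kind, then CCACG, and its shorter part CCACG alone were searched on both strands in the 250 bases before the RefSeq start (GRCm38.p6), and 64 of the 78 genes had such a sequence, with 70 promoters among them. The full element was in 1 of these promoters (1.43%), that of Pdia6, against 0.138% of the promoters of genes in the table and 0.113% of all promoters. The short part was in 36 member promoters (51.4%), against 40.9% of those of genes in the table and 28.3% of all. Shown are the windows of Pdia6, the only member with the full element, and of Sec11a and Kdelr3, the pair with the highest rho. Capitals mark each full element and each CCACG or its reverse complement. They stand for chr12:17266339-17266588 on the plus strand, chr7:80947551-80947800 on the minus strand and chr15:79516158-79516407 on the plus strand.
Pdia6: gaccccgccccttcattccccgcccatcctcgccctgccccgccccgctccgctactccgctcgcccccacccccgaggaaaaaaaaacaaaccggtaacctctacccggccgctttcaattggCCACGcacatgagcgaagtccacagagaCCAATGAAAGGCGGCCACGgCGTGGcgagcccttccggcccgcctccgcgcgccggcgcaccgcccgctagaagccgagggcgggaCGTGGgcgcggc
Sec11a: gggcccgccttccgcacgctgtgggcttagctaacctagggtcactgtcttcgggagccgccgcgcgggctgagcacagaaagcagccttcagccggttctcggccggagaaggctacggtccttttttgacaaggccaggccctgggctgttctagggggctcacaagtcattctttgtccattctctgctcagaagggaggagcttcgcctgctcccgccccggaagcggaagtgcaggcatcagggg
Kdelr3: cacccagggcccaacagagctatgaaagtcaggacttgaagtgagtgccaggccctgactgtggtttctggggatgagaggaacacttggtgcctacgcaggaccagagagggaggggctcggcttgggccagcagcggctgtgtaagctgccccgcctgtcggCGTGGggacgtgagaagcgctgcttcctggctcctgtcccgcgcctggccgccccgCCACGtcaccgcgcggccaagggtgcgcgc
In Pdia6 the short part occurs 4 times, and once within the full element, whose sequence is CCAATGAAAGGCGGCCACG. Kdelr3 has it 2 times, and Sec11a has none in this window. By the GENCODE coordinates given above, Sec11a begins at 80947780, so most of its window, placed by the RefSeq start, lies within the gene. The bases further before the GENCODE start were not searched. These are matches of letters only. Pdia6, a disulfide isomerase, had levels of 1.98 to 7.84 and a median of 5.75, with a rho of -0.25 with the collagen mean.

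The genes of the collagen-modifying enzymes stood near the whole set in their relation to collagen. The median rho of the 7 genes was 0.18, from -0.42 to 0.43, against 0.18 over the 78 genes and -0.016 over all genes. A rho of 0.5 or more was found for 0 of the 7, which at 3.31% of all genes says little about so few. This changed without cells 6, 8, 11 and 14, a setting chosen after the data had been seen and described below. Plod2, P4hb and Plod1 then had 0.77, 0.66 and 0.60, where 6.28% of all genes reached 0.5. P4ha1, P4ha2, P4ha3 and Plod3 had 0.26, -0.18, -0.31 and -0.16 there, and the median of the 7 was 0.26. P4hb encodes protein disulfide isomerase, which is also the beta subunit of prolyl 4-hydroxylase, and had levels from 5.89 in cell 7 over a median of 10.12 to 11.30 in cell 9, with a rho of 0.24. It was high in every cell, and in 13 of the 14 it was at 7.48 or more. Its catalytic partners were far lower on the same scale: P4ha1 had a median of 4.27 (range 0.22 to 7.13), P4ha2 of 1.55 (0.46 to 6.42) and P4ha3 of 1.31 (0 to 6.88). The part of the division by length in this contrast with P4hb was not tested. P4ha1 was detected in 13 cells, P4ha2 in 8 and P4ha3 in 8. The rho of these 3 genes with the collagen mean was 0.18, 0.17 and -0.42.

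The prolyl hydroxylase paralogues were high in different cells. P4ha1 was the highest of its family in cells 1, 3, 7, 9, 10 and 13, P4ha2 in cells 4, 5, 6 and 12, and P4ha3 in cells 2, 8, 11 and 14. P4ha3 had 6.88, 6.35, 6.34 and 5.74 in cells 2, 11, 1 and 8, and 2.54 or less in the other 10, with no level between. Cell 13, which had the highest collagen mean, held P4ha1 at 3.74, P4ha2 at 0.46 and P4ha3 at 0. Every cell had at least 1 of the 3 detected, and 4 cells had all of them. With the division by length undone, these counts of cells were the same for the P4ha genes, and Plod2 and Sec24d were each highest in 7 cells in place of 8, and Kdelr2 in 9.

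Lysyl hydroxylases make the residues from which collagen cross-links form. Plod2, whose product hydroxylates the telopeptides, ranged from 0.70 in cell 14 over a median of 2.49 to 8.48 in cell 13. It was the highest of its family in 8 cells (1, 4, 5, 6, 7, 10, 12 and 13), and its rho with the collagen mean was 0.43, the highest of the 7 hydroxylase genes. Plod1 had a median of 1.40 and reached 4.20 in cell 10, and Plod3 had a median of 1.73 and reached 5.44 in cell 1. In cell 6, whose collagen mean was 11.77, Plod2 was at 1.17, Plod1 at 0.81 and Plod3 at 0.70.

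**Figure D3:**
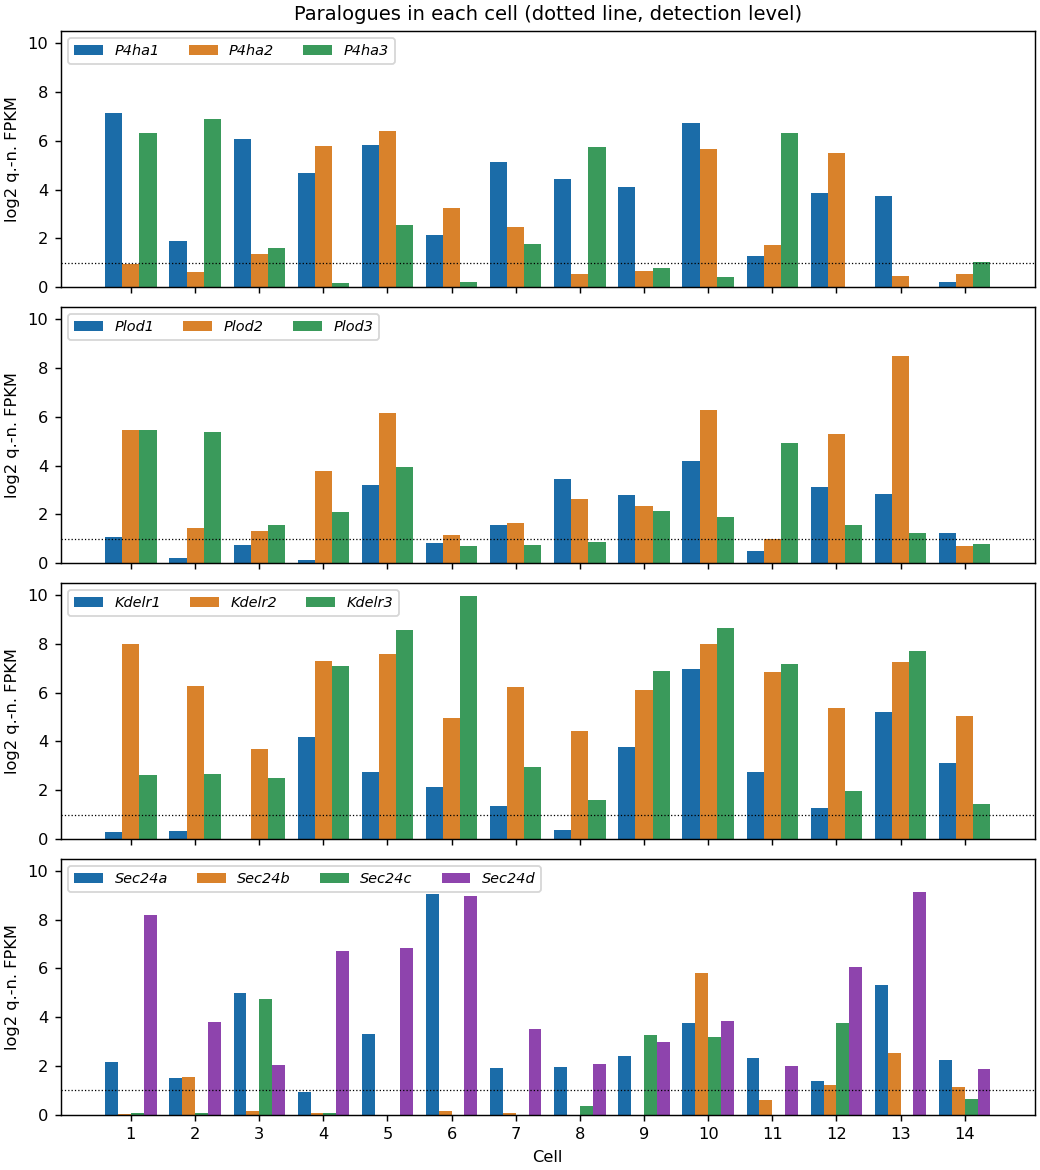
Levels (log2 quantile-normalized FPKM) of the paralogues of 4 families in cells 1 to 14; the dotted line is the detection level of 1. P4ha3 is the highest of its family in cells 2, 8, 11 and 14, Plod2 in 8 cells, Kdelr2 or Kdelr3 in every cell, and Sec24d in 8 cells.

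Among oxidoreductases other than P4hb, Pdia4 was split between cells. Cells 4, 7, 10, 5 and 9 had 7.02, 6.98, 6.45, 5.44 and 5.23, and the other 9 had 2.67 or less. Pdia5 was detected in 5 cells and had 7.44, 6.18, 5.06 and 4.60 in cells 10, 9, 4 and 5. Cells 4, 5, 9 and 10 were thus high in both. Their rho with the collagen mean was 0.12 and 0.45. Of the oligosaccharyltransferase genes, Ostc had a median of 7.01 and ranged from 2.79 in cell 3 to 10.03 in cell 13, with a rho of 0.41, whereas Rpn2 stayed between 4.88 and 9.13 with an SD of 1.10.

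The COPII genes number 12, of which 8 were detected in at least 7 cells, against 51.7% of all genes. A rho of 0.5 or more was found for 3, against 3.31%. A higher level did not always go with a closer relation to collagen. Sar1b, Sec23b and Sar1a had higher medians than Sec24d and Sec24a, and a lower rho. Sec31a and Sec13 had the highest medians of the group, 5.95 and 5.84, with a rho of 0.45 and 0.56. Sec24c and Sec16a had the lowest medians, with a rho of -0.43 and -0.078. Sec24d, a cargo-binding coat subunit whose loss impairs skeletal development in fish and causes a brittle bone syndrome in people, was lowest in cell 14 at 1.88, had a median of 3.80 and reached 9.14 in cell 13, 8.96 in cell 6 and 8.18 in cell 1. Its rho with the collagen mean was 0.64, 0.45 without cells 6, 8, 11 and 14, and 0.55 to 0.70 with each cell left out. Cell 10 went against this order, with Sec24d at 3.83 beside a collagen mean of 11.76. Sec24a had a rho of 0.56 and a median of 2.29, and its 9.04 in cell 6 stood well above the next level, 5.33 in cell 13. Sec13, of the outer coat, had a rho of 0.56 and ranged from 1.34 in cell 14 to 9.0 in cell 13. Sec31a, its partner, had the highest median of the group at 5.95 and split into 8 cells at 5.69 or more and 6 cells at 2.47 or less, with a rho of 0.45.

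The median rho of the 12 COPII genes was 0.25, while the mean level over them had a rho of 0.74 with the collagen mean, between 0.67 and 0.81 with each cell left out. Of the inner coat pair, Sec23b, with a median of 5.14, was detected in all 14 cells, while Sec23a, mutated in a human skull and face disorder, was detected in 5 cells, at 4.09 in cell 13 where it was highest. Sec24b and Sec24c were detected in 5 and 4 cells, and Sec16a, which organises ER exit sites, in 3. Sec24c had the lowest rho of all members, -0.43. The small GTPase genes that start the coat, Sar1a and Sar1b, had medians of 4.62 and 5.31 and rho values of 0.23 and -0.0066.

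Genes of retrieval from the Golgi included some of the closest relations after Sec11a. KDEL receptors return ER proteins that carry a retention signal at their end. Kdelr3 (ENSMUSG00000010830, chromosome 15, 79516411 to 79527739, plus strand) ranged from 1.44 in cell 14 over a median of 4.92 to 9.95 in cell 6. It split into 7 cells at 6.88 or more, namely 4, 5, 6, 9, 10, 11 and 13, and 7 cells at 2.96 or less, with none between. Its rho was 0.71, between 0.65 and 0.78 with each cell left out, and ranked 36th of the 9547 genes. The groups of cells overlapped in collagen: cell 1 had Kdelr3 at 2.62 beside a collagen mean of 10.73, and cell 4 had 7.09 beside 6.99. Kdelr2 had a higher median, 6.25, and a smaller SD of 1.36, and Kdelr1 was detected in 10 cells with a highest level of 6.95 in cell 10. The rho of Kdelr2 was 0.47 and that of Kdelr1 was 0.48, which ranked 401st and 361st of the 9547 genes. The mean over the 3 genes had a rho of 0.75, and 0.70 to 0.85 with each cell left out. Exons of Kdelr3 overlap those of Ddx17 on the opposite strand, and strand use in the counting was not given in the sources used here. Ddx17 had a median of 0.75 and a rho of 0.12 with Kdelr3.

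Of the 8 COPI genes, Copz2 had the highest median, 8.0, and the highest rho, 0.67. It was lowest in cell 14 at 2.70, followed by 3.84 in cell 3 and 4.48 in cell 2, and was at 6.60 or more in the other 11 cells, with a highest level of 9.85 in cell 10. Copz2 was above its paralogue Copz1 in all 14 cells, also with the length division undone. Cope had a median of 7.61 and a rho of 0.36, and the largest subunit gene Copa had 3.80 and 0.11. The mean over the COPI genes had a rho of 0.35. Both signs were found for the derlin genes of ER-associated degradation too, where Derl1 had a rho of -0.21 and Derl2 of 0.30.

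Cargo receptors showed both directions. Lman1, which carries certain glycoproteins out of the ER, had the largest SD of all members, 3.37, with 8.78 in cell 10, 8.54 in cell 4 and 8.30 in cell 6 at the top and 0.33 in cell 14 at the bottom, and a rho of 0.43. Its relative Lman2 had a rho of -0.37, with 5.58 in cell 8 and 0.32 in cell 2. Among the p24 family, Tmed10 had the highest median at 7.08 with a rho of 0.19, and Tmed7 had -0.32. The 12 genes had a median rho of 0.20. Sec22b, a SNARE of ER and Golgi traffic, was detected in 12 cells with a rho of 0.33, and its paralogues Sec22a and Sec22c in 3 and 2 cells. The lipid-transfer genes Sec14l1 and Sec14l4, outside the pathway, had rho values of -0.15 and -0.19.

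Over the whole set, relations to collagen were mostly weak and mostly positive. Of the 78 genes, 57 had a rho above 0, which is 73.1% against 47.4% of all genes. A rho of 0.5 or more was found for 7 of the 78 (8.97%), against 3.31% of all genes: Sec11a, Kdelr3, Copz2, Sec24d, Sec13, Sec24a and Sec62. Sec62, of the translocon, was the least of them with 0.52. A rho of -0.5 or less was found for 0 of the 78, against 3.09%. The median rho was 0.18 (SD 0.29 over the 78 genes), against -0.016 (SD 0.27) over all genes. The members are detected in more cells than most genes, so the counts were also taken at matched detection. Among the 69 members detected in at least 7 cells, 7 (10.1%) had a rho of 0.5 or more, against 3.59% of all such genes, and 51 (73.9%) had a rho above 0, against 46.2%. Among the 34 detected in all 14 cells, 28 (82.4%) had a rho above 0, against 49.5%, and the median rho was 0.25, against -0.0022 over 1504 genes. Here all genes means every gene of the table except Col1a1 and Col1a2. By role, the mean level had a rho of 0.75 for KDEL receptors, 0.74 for COPII, 0.47 for the translocon, 0.35 for COPI, 0.30 for oligosaccharyltransferase, 0.24 for the SNAREs and 0.23 for signal peptidase. It was 0.16 for cargo receptors, 0.13 for collagen hydroxylases, 0.12 for the derlins, 0.10 for oxidoreductases and -0.090 for the signal recognition particle. These correlations are over 14 cells that share a table and its normalization, they describe these cells only, and no test was made of them. The count of 7 depends on single cells: it was 18 without cell 6, against 4.40% of all genes, and 12 without cell 4, 7 or 8, against 3.99%, 3.89% and 3.84%. It was 11 without cell 9, against 3.89%, and 6 without cell 3, 10 or 13, against 4.02%, 3.31% and 3.98%.

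**Figure D4:**
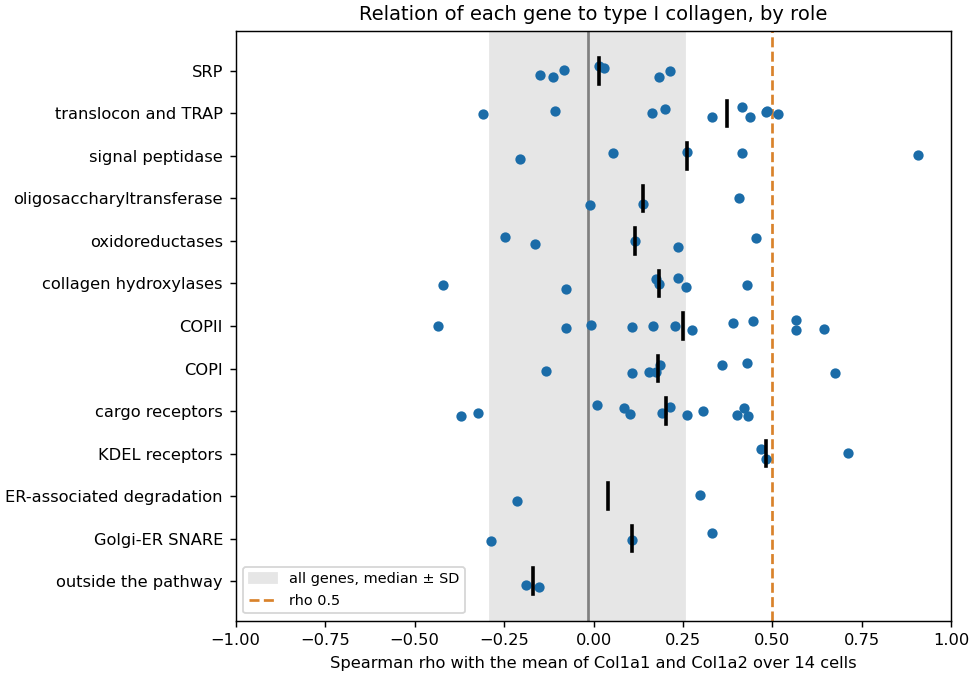
Spearman rho of each gene with the collagen mean over 14 cells (horizontal axis), by role (rows); points are genes, black bars are medians of the role, and P4hb stands in both of its roles. The grey band is the median of all genes, -0.016, plus and minus an SD of 0.27, and the dashed line is a rho of 0.5, which 7 genes pass.

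The mean level over the 78 genes was taken in each cell. Cells 10, 5, 13 and 4 had means of 5.66, 5.32, 5.26 and 5.12, and the other 10 cells lay between 3.19 and 4.32. The number of detected members was 69, 68, 65 and 69 in the first 4 of these and 54 to 68 in the rest. The share of all genes detected in each cell was not counted. Genes above 0 were fewest in cell 10, at 7299 of 9549, and numbered 7475 in cell 6. Cells 10 and 13 also had high collagen, but cells 4 and 5 had collagen means of 6.99 and 8.51, and cell 6 had the second highest collagen mean with a member mean of 3.66 and the fewest detected members, 54. The rho between the member mean and the collagen mean was 0.45, and 0.35 to 0.62 with each cell left out.

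Prrx1, whose promoter labels the cells, was detected in 11 of the 14. The blood cell marker lists had negative rho values with the member mean, as did the fibroblast and stromal list and the endothelial list. The osteoblast list had a positive one with the collagen mean. Of 9 neutrophil markers listed, 7 had a row, 5 of them above the detection level in 7 cells or more. Their mean level ranged from 3.17 in cell 4 to 10.74 in cell 6. The rho of this list with the member mean was -0.50. Of 5 macrophage markers 4 had a row, with means from 1.11 in cell 4 to 10.71 in cell 14 and a rho of -0.62, and the 6 pan-leukocyte markers ranged from 1.16 in cell 4 to 9.51 in cell 14 with a rho of -0.58. The rho of these 3 lists with the collagen mean was -0.21, -0.39 and -0.34. The neutrophil granule genes Camp, Ngp and Lcn2 and the neutrophil gene Retnlg were detected in all 14 cells, with medians of 9.64, 8.70, 7.63 and 9.92, as were the leukocyte genes Tyrobp, Fcer1g and Cd52, with medians of 5.86, 5.90 and 5.67. At the other end, Elane, a neutrophil elastase gene, was detected in 3 cells, and Mpo and Ptprc, the leukocyte antigen CD45 gene, in 5 each. Of 9 osteoblast markers 7 had a row, 3 of them above the detection level in 7 cells or more. The mean of this list ran from 0.98 in cell 5 to 6.74 in cell 10. It had a rho of 0.68 with the collagen mean and 0.14 with the member mean. For the 8 fibroblast and stromal markers these were 0.015 and -0.39. Of 7 plasma and B cell markers 3 had a row, with a list mean of 0.37 to 2.23, and Sdc1 among them was at 4.85 in cell 9. The rho of this list with the member mean was -0.27. For endothelial cells 2 of 4 markers had a row, with means from 0.75 to 4.47 and a rho of -0.43 with the member mean. The part of these cell types in the results was not tested. Leaving out cells 6, 8, 11 and 14, the 4 with the highest mean of the neutrophil markers, gave a rho of 0.58 between the member and collagen means and 20 members at 0.5 or more, against 6.28% of all genes. Sec24d was not among the 20, at 0.45.

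**Figure D5:**
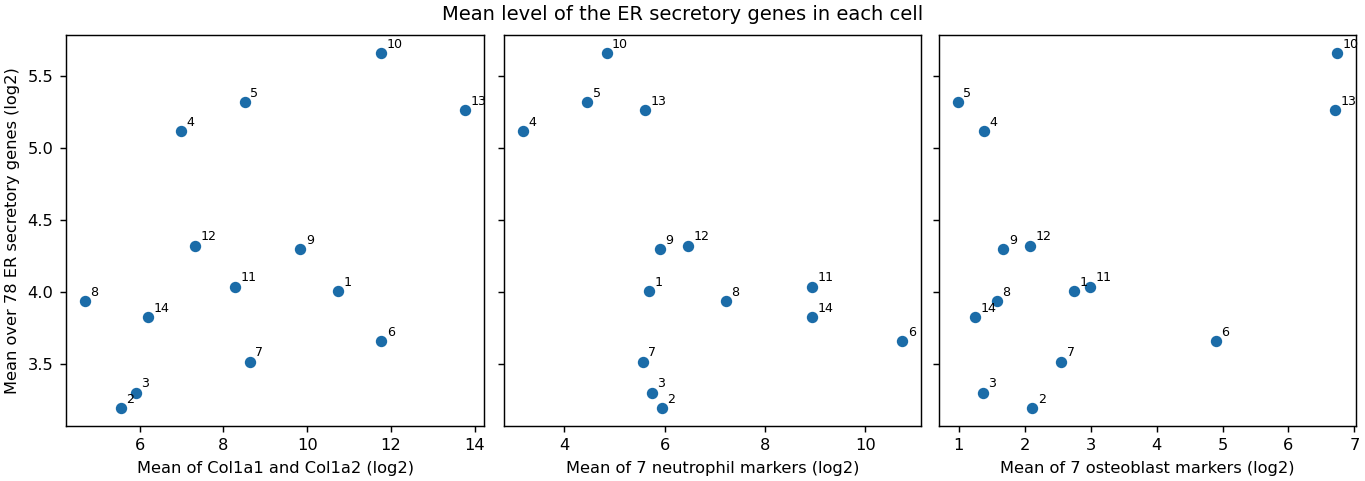
Mean level of the 78 genes in each cell (vertical axis, log2 quantile-normalized FPKM) against the collagen mean, the mean of 7 neutrophil markers and the mean of 7 osteoblast markers (horizontal axes, log2); points are labelled with the cell number. Cells 4, 5, 10 and 13 lie above 5 in all panels, and cell 6 combines the highest neutrophil mean, 10.74, with a member mean of 3.66.

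The cells also fall into sets by which genes are at 0, with cells 1, 2, 5, 6, 7, 8, 9, 10 and 14 in the larger set and cells 3, 4, 11, 12 and 13 in the smaller. The labels do not name these sets. Member means were 3.19 to 5.66 in the larger set and 3.30 to 5.26 in the smaller. Within the 9 cells of the larger set the median rho of the members was 0.15, Copg2 left out because it is at 0 in all of them, against 0.00 over all genes, and the rho of the member mean was 0.32. In this set 7 of the 78 members had a rho of 0.5 or more, which is 8.97%, against 8.32% of all genes, so the larger share seen over 14 cells was near the share of all genes here. They were not the same 7 genes as over 14 cells. Copz2, Sec13 and Sec62 fell to 0.43, 0.33 and 0.28. P4ha2 (0.67), Sar1b (0.50) and Tmed5 (0.50) came in their place. By role, the mean level of KDEL receptors and that of COPII each had a rho of 0.78 in the larger set. The translocon had 0.18, COPI 0.067, the derlins -0.23 and the signal recognition particle -0.37. The other roles of the pathway lay between -0.017 and 0.37. The smaller set holds too few cells for a correlation.

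Other genes of the pathway, which the rule did not match, were compared in the same way. Of 82 symbols listed, older and newer names of a gene included, 70 had a row. Of these, 59 were at the detection level in 7 cells or more, against 51.7% of all genes. The median rho of the 70 was 0.15, and 8 of them reached 0.5, against 3.31% of all genes. The genes of collagen folding and modification stood highest among the 6 lists, with a median rho of 0.44. Of these 11 genes, 5 were at 0.5 or more, against the same 3.31%. They were the prolyl isomerase genes Fkbp10 (0.69), Fkbp14 (0.57) and Fkbp7 (0.56), Crtap (0.60), a partner of collagen prolyl 3-hydroxylase, and P3h3 (0.58), of the prolyl 3-hydroxylase family. In the larger set of cells Crtap and Fkbp7 fell to 0.28 and 0.38, while Fkbp10, Fkbp14 and P3h3 had 0.70, 0.70 and 0.72. Fkbp10, mutated in a human brittle bone disease, had a median of 3.34 and a highest level of 7.77 in cell 10, and Fkbp7 had a median of 9.30. The collagen chaperone gene Serpinh1 (HSP47) had a median of 6.82 and a rho of 0.44. General ER folding genes had a median rho of 0.033, with -0.27 for the ER chaperone gene Hspa5 (BiP), whose median was 8.23. Of these 14 genes, 1 was at 0.5 or more, Dnajb11 (0.68), which at 3.31% of all genes says little about so few. Adamts2, which cleaves the amino-terminal propeptide of procollagen, had 0.64, and Ost4, of oligosaccharyltransferase, 0.62.

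The lists of export and of the unfolded protein response had median rho values of 0.055 over 15 genes and 0.064 over 11, against -0.016 over all genes. A rho of 0.5 or more was found for 0 of these genes, a count near the share of 3.31% over all genes for lists of this size. Among the pathway genes that the rule did not match and that were detected in at least 7 cells, 3 had the lowest rho values. Ergic1, of the ER-Golgi intermediate compartment, had -0.58, Ctage5, which helps export large cargo such as collagen, -0.39, and Stt3b, a catalytic subunit of oligosaccharyltransferase, -0.37. Syvn1, a ubiquitin ligase gene of ER-associated degradation detected in 3 cells, had -0.41. Ctage5 was at 10.08 in cell 2, whose collagen mean was 5.54, against a median of 3.18.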

How the data were processed

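The deposited table holds 1 column per cell and was matched to the 14 cells by title, with 0 columns left over. The submitters' processing notes name TopHat2, Cufflinks and GRCm38 without versions. The library kits, per the labels' protocols, were SMART-Seq v4 3' DE and Nextera XT. The values are read as log2(FPKM + 1) after quantile normalization, since the authors' deposited log2 values hold the same distribution in every cell. Neither step is recorded, so this reading rests on the values. It hides differences in RNA content and depth, and division by length understates long genes in a 3' library. The choice of rows was not given in the sources used here.

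The first row of a repeated gene ID was used. Detection, level and Spearman rho with the mean of Col1a1 and Col1a2 were computed over the 14 cells (Python 3.11.15, pandas 2.3.3, SciPy 1.17.1), with every gene but those 2 as background. The correlation code was tested on simulated data. Coordinates and exon overlaps are from GENCODE M21 (GRCm38), and promoters from RefSeq (GRCm38.p6). Of the 78 genes, 30 have an exon overlap with another annotated gene. The members and lists were chosen with earlier results of these data known. Named are all P4h, Plod and Kdelr genes, the highest median and rho in each role, the 5 highest and lowest rho, the 5 largest SDs, the 5 highest medians, members detected in fewer than 7 cells and, of the other pathway genes detected in at least 7 cells, the 5 highest and 3 lowest rho. Others named were chosen after their values were seen.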

Additional observations from a re-analysis of the deposited data

How the results depend on the processing

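The number of members detected in all 14 cells followed the threshold: 34 at an FPKM of 1, 63 above 0, 16 at an FPKM of 5 and 8 at an FPKM of 10. The share of all genes was 15.8% at an FPKM of 1 and was not counted at the other thresholds. The number with a rho of 0.5 or more was 7, and was 12 against the mean of 5 fibrillar collagen genes (3.73% of all genes), 11 with the sets of cells centred separately (5.67%) and 20 without cells 6, 8, 11 and 14 (6.28%). It was 22 at a cut-off of 0.4 (7.02%) and 4 at 0.6 (1.44%). The centring and the leaving out of those cells were made after the data had been seen. With each cell left out, this number was 6 to 18, the median rho 0.12 to 0.28, the rho of the member mean 0.35 to 0.62 and the median rho of the hydroxylase genes 0.055 to 0.31. Median rho, level, percentile, rho of the member mean and pair rho kept their sign in each alternative tried and moved by less than the spread over the members. For rho this spread, an SD of 0.29, is larger than the median of 0.18, so keeping within it is a loose check. Of the values for single genes and roles under the alternatives, 616 moved by less than the SD of rho over the members and 32 by more. Among the latter were P4ha2, at 0.67 in the larger set of cells, and Plod2, P4hb and Plod1 without cells 6, 8, 11 and 14. No rho of 0.5 or more changed sign. No paired analysis was possible because the labels hold 1 group. Without counts, detection limits cannot be given.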

Other observations

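Pairs of members were compared over the 14 cells, for the 69 members detected in at least 7 cells. The median Spearman rho over the 2346 pairs was 0.15, against 0.0066 for all pairs of genes with that detection. It was 0.18 for the 220 pairs of members with the same role and 0.14 for the 2126 pairs with different roles. Of 64 pairs at 0.7 or more, 4 shared a role, as did 220 of all 2346 pairs. The share of all gene pairs at 0.7 or more was not counted. The highest rho, 0.89, joined Srp19, of the signal recognition particle, and Copb2, of the COPI coat. Srp54a and Srp54b followed at 0.87, a pair of near-identical copies whose reads the counting could have split. Sec11c and Sec61g had 0.85, as did Ssr2 and Kdelr2, and Copz2 and Sec13 had 0.83. The lowest was -0.79, between the cargo receptor gene Lman2l and the oligosaccharyltransferase gene Rpn1.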
